A study of Mus musculus with 10 samples.

Results

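Thapsigargin added to LPS in wild-type dendritic cells was examined on 4 of the 10 arrays of the series: LPS alone at 48 and 60 h, and LPS with thapsigargin at 48 and 60 h. The 4 arrays were taken by their labels, 2 for each treatment, and the treatments were compared within each time, so the comparison is 2 against 2. The cells were grown from the bone marrow of C57BL/6 mice aged 6 to 8 weeks in medium with the supernatant of B16 tumour cells that carry a GM-CSF gene, and were used once nearly all of them stained for CD11c. Smooth LPS was given at 1 µg/ml to all 4 cultures and thapsigargin at 50 nM to 2 of them. An unstimulated wild-type culture harvested at 24 h gives the level before LPS on 1 array, and 5 arrays of CD14-deficient cells treated in the same ways serve for the comparison of genotypes. The stated purpose of the series was to find apoptosis genes under the control of NFAT.

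Thapsigargin blocks SERCA, the pump that returns calcium from the cytosol to the endoplasmic reticulum. Cytosolic calcium then rises and activates calcineurin, a phosphatase that lets NFAT transcription factors enter the nucleus, and Rcan1 and Il2 are classical NFAT targets. Emptying the store also hampers protein folding in the endoplasmic reticulum, which switches on the unfolded protein response: the sensors Atf6, Ern1 and Eif2ak3 raise chaperones, disulfide isomerases and degradation factors and, through Atf4, the gene Ddit3. CD14 is the LPS co-receptor that in dendritic cells also triggers calcium entry and NFAT activation.

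The values were MAS5 signals, which are linear probe set intensities, scaled so that the 10 arrays had the same trimmed mean. Signals under 13.4 were raised to that floor, and 7474 of 12393 genes passed the filter of a signal above 99.2 on at least 2 of the 10 arrays. Changes are log2 of LPS with thapsigargin minus log2 of LPS alone at the same time, and errors after ± are standard errors of the mean change from a limma model of the 10 arrays. A call means a Benjamini-Hochberg adjusted p under 0.05 in that model, and "rose" and "fell" are used for calls. No condition was repeated at the same time, so p-values measure how far the 48 and 60 h arrays depart from a common time shift and do not cover the spread between cultures.

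Cd14 checked the genotype labels: it read 15604 and 16192 under LPS and 17729 and 15538 with thapsigargin in wild type, and 1.85 to 7.35 on the 4 stimulated CD14-deficient arrays. The LPS array at 60 h stood apart from the other wild-type arrays. Its 3 probe sets for 18S rRNA read 217, 396 and 685, against 1426 to 7417 on the other 3 stimulated wild-type arrays. The ratio of the 5' to the 3' actin probe set was 0.617 on that array and 0.877 to 0.978 on the other 9. Its RNA integrity number was 8.6 and its cRNA yield 19 µg, against 9 to 10 and 30.3 to 37.8 µg on the other 3. Between 48 and 60 h, 491 genes were 2-fold apart under LPS alone and 115 under LPS with thapsigargin. What this array contributes to the 60 h changes was not tested, so both times are given for each gene. The 48 h CD14-deficient LPS array also read low for 18S rRNA, 114 to 385, and 1297 genes were 2-fold apart between the CD14-deficient LPS arrays.

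With thapsigargin, 1 gene rose (0.0134% of 7474) and 3 fell (0.0401%), 4 in all (0.0535%), by limma on the 10 arrays with Benjamini-Hochberg adjustment. At an unadjusted p under 0.05 there were 770 genes. Gpr35, a G protein-coupled receptor of immune and gut cells, rose from 277 and 302 under LPS at 48 and 60 h to 1335 and 1713 with thapsigargin, a mean log2 change of 2.39 ± 0.20 with an adjusted p of 0.0374. The Gpr35 call was lost without the filter (adjusted p = 0.0787) and after quantile normalization (adjusted p = 0.0609). Tm4sf1, a tetraspan membrane protein, fell from 2430 and 1854 to 103 and 67.7, a mean log2 change of −4.67 ± 0.32 with an adjusted p of 0.0315. Hp encodes haptoglobin, the haemoglobin-binding acute-phase protein, and it fell from 462 and 607 to 29.1 and 27.3, a change of −4.23 ± 0.32 with the same adjusted p of 0.0315. U90926, a transcript with little known function, fell from 10137 and 11000 to 1104 and 1328, a change of −3.12 ± 0.23 and again with an adjusted p of 0.0315. Without the filter the calls of Tm4sf1, Hp and U90926 were lost too, with adjusted p-values of 0.0916, 0.114 and 0.0851, and Hp was also lost with a strict filter (adjusted p = 0.0616). Averaging probe sets moved Tm4sf1 to −2.34 (adjusted p = 0.10), its other probe set being at the floor on all 4 arrays. In each of the 4 genes both thapsigargin arrays lay on 1 side of both LPS arrays with no overlap. Calling favours such genes, and of all genes 31.8% had both thapsigargin arrays above both LPS arrays and 15.1% below. Before LPS the single unstimulated array read 284 for Gpr35, 29 for Tm4sf1, 175 for Hp and 36.1 for U90926.

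The number of calls depended on which arrays set the spread. When limma was fitted to the 4 wild-type stimulated arrays alone, 160 genes were higher (2.14%) and 237 lower (3.17%), 397 in all (5.31%), and the 4 calls above were among them. That fit has 1 residual degree of freedom, against 3 in the model of 10 arrays. The spread of a gene in it is thus drawn mostly from that of all genes, here and wherever its calls are given below. Without the CD14-deficient LPS pair, the remaining 8 arrays gave 309 higher and 300 lower genes, and dropping the 48 h or the 60 h array of that pair alone gave 586 and 594 calls. With the deposited values left unscaled, 1 gene was called higher and 16 lower. Leaving out any single wild-type stimulated array, in the model with all others, gave 0 calls, as did leaving out either CD14-deficient thapsigargin array, with 242 to 625 genes at an unadjusted p under 0.05.

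Counted without a model, 82 genes were at least 2-fold higher with thapsigargin at both times (1.10%), 130 were at least 2-fold lower at both times (1.74%), which makes 212 (2.84%), and 3 went 2-fold in opposite directions (0.0401%). Those 3, Fam117a, Nipbl and Pcm1, named because they are the whole count, were higher at 48 h and lower at 60 h. At 48 h alone 251 genes were 2-fold higher and 254 lower, and at 60 h alone 195 and 212. All 82 and all 130 were called in the fit of the 4 wild-type arrays. That fit uses the same values, so these calls add no separate support. Across the 7474 genes the changes at 48 and 60 h correlated with a Pearson r of 0.60, a description over genes that share 4 arrays. The median change of all genes was 0.13 at 48 h and 0.08 at 60 h, and with the deposited values left unscaled it was −0.07 and 0.16. Of the 82 higher genes, 4 passed the filter through the wild-type thapsigargin arrays alone, and 6 had both LPS arrays at the floor. Of the 130 lower genes, 3 passed it through the wild-type LPS arrays alone, and 6 had both thapsigargin arrays at the floor. Fewer than 2 of the 4 wild-type stimulated arrays were above the filter in 13 of the 82 and 19 of the 130.

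**Figure D1:**
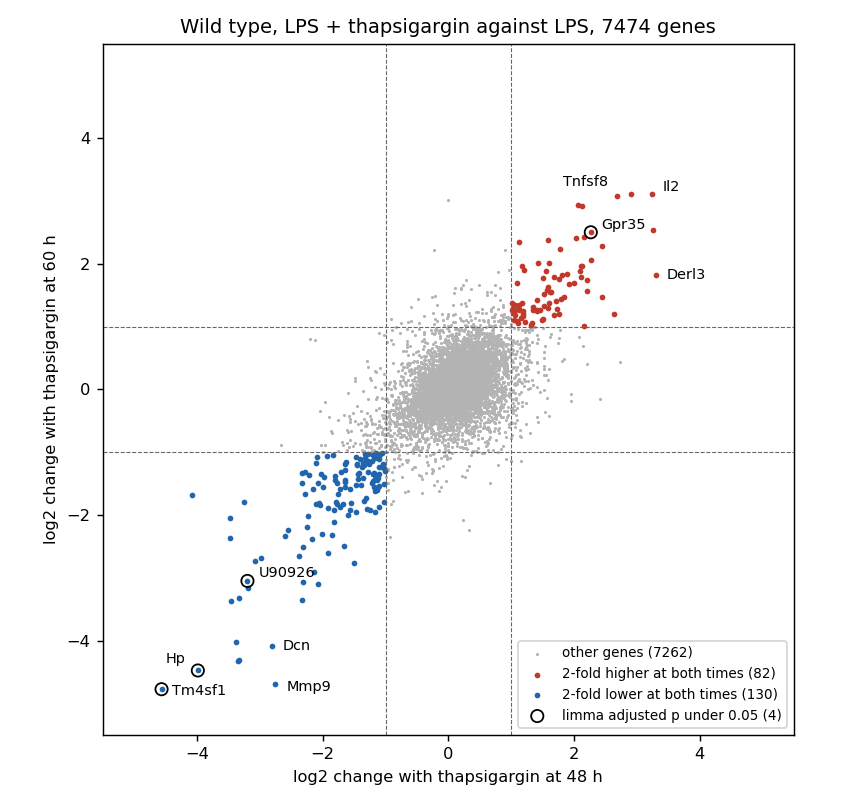
The plot sets the log2 change with thapsigargin at 60 h (vertical axis) against that at 48 h (horizontal axis) for the 7474 genes of wild-type cells, 1 point per gene, with dashed lines at 2-fold. The 82 genes 2-fold higher and 130 genes 2-fold lower at both times lie in opposite corners, and Tm4sf1, Hp, U90926 and Gpr35 are ringed as the 4 calls.

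The 15 genes with the largest increase shared by both times, Gpr35 among them, began with Il2 and Tnfsf8. Il2, the T cell growth factor, read 0.881 and 1.41 under LPS, both far below the floor, and 127 and 115 with thapsigargin, at least 9.02-fold higher when the floor is taken as the LPS level (adjusted p = 0.10). Il2 was thus above the floor on the 2 thapsigargin arrays and below it on the LPS arrays and the unstimulated array. It passed the filter only through the wild-type thapsigargin arrays, as did Sncg below. Akr1c18, Adh4, Crabp2, Klrc1 and Slc13a3, also described below, passed it only through thapsigargin arrays, CD14-deficient ones included. The place of all these genes follows in part from where they are high. Tnfsf8, which encodes the CD30 ligand, went from 53.9 and 57.3 to 406 and 497, a mean change of 3.02 ± 0.37 (adjusted p = 0.10). Klrc1, an NKG2 receptor of natural killer cells, read 8.82 and 3.03 under LPS and 56 and 102 with thapsigargin, and none of the 9 measured T and natural killer cell markers passed the filter. Cxcr5, the receptor for the follicle chemokine Cxcl13, read 68.3 and 123 under LPS and 253 and 436 with thapsigargin.

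Akr1c18, a progesterone-inactivating reductase, read 11 and 25.1 under LPS and 128 and 145 with thapsigargin. Adh4, an alcohol dehydrogenase, and Crabp2, a retinoic acid carrier, both act on retinoids, and both had their LPS arrays at the floor: with thapsigargin Adh4 read 73.4 and 65.5 and Crabp2 58.7 and 102. Slc13a3, a dicarboxylate transporter, read 17.9 and 24.2 under LPS and 80.2 and 130 with thapsigargin. Perp, a p53 target of the cell membrane, went from 76.7 and 108 to 371 and 453, with an adjusted p of 0.0763. Iigp1, an interferon-inducible GTPase, went from 746 and 408 to 3246 and 1600. Ccnd1, which encodes cyclin D1, read 84.8 and 91.4 under LPS and 364 and 337 with thapsigargin, below the 1681 of the unstimulated array. The remaining 3 were Sncg, a synuclein, Cd34, a progenitor surface glycoprotein, and Pvt1, a non-coding transcript beside Myc, at mean changes of 2.88 ± 0.39, 2.22 ± 0.63 and 2.04 ± 0.35. Of the 15, only Gpr35 was called, and the other 14 had adjusted p-values from 0.0763 to 0.42.

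Besides the 3 calls, the 15 genes with the largest decrease held these. Fst, which encodes follistatin, an activin inhibitor, went from 297 and 549 under LPS to 28.6 and 33.9. Ccl24, an eosinophil chemokine, read 147 and 138 under LPS and 3.27 and 2.66 with thapsigargin, at least 10.7-fold lower when set against the floor (adjusted p = 0.0763). Tgfbi, a matrix protein induced by TGF-beta, went from 9673 and 7186 to 965 and 715, a 10.0-fold difference. Its level on the unstimulated array, 8464, lay between the LPS arrays. Dcn, the matrix proteoglycan decorin, read 921 and 2707 under LPS, 131 and 159 with thapsigargin and 2.59 before LPS. Mmp9, gelatinase B, went from 142 and 414 to 21.1 and 16. Both Dcn and Mmp9 were higher on the 60 h than on the 48 h LPS array, and the thapsigargin arrays lay below both.

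Ly6i, a member of the Ly6 surface family, went from 3260 and 2115 to 318 and 106, and Wfdc21, a small secreted protein with a WAP domain, from 1515 and 1779 to 150 and 90.1. Nppc, the C-type natriuretic peptide, read 122 and 163 under LPS and 8.78 and 18.1 with thapsigargin. Slamf6, a lymphocyte activation receptor, read 672 and 537 under LPS and 79.9 and 80.8 with thapsigargin. The other 3 were Pcdh7, a protocadherin, Adhfe1, an iron-dependent alcohol dehydrogenase, and Ear3, an eosinophil-type ribonuclease, at mean changes of −2.83 ± 0.30, −2.51 ± 0.30 and −2.92 ± 1.21. Besides Tm4sf1, Hp and U90926, the other 12 had adjusted p-values from 0.0763 to 0.49. Ccl24 passed the filter only through the wild-type LPS arrays. Fst, Mmp9, Nppc, Pcdh7 and Adhfe1 passed it only through arrays of LPS alone, CD14-deficient ones included. The place of these genes follows in part from where they are high. Of the 30 genes, 11 had further probe sets, 17 in all, of which 13 moved the same way at both times and 2 were at the floor on all 4 arrays. The rest were of Pvt1, read 10.6 to 29.7, and changed by 0.34 and −0.09 and by −0.83 and 0.61 at 48 and 60 h. The increase of Pvt1 thus rests on its brightest probe set.

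**Figure D2:**
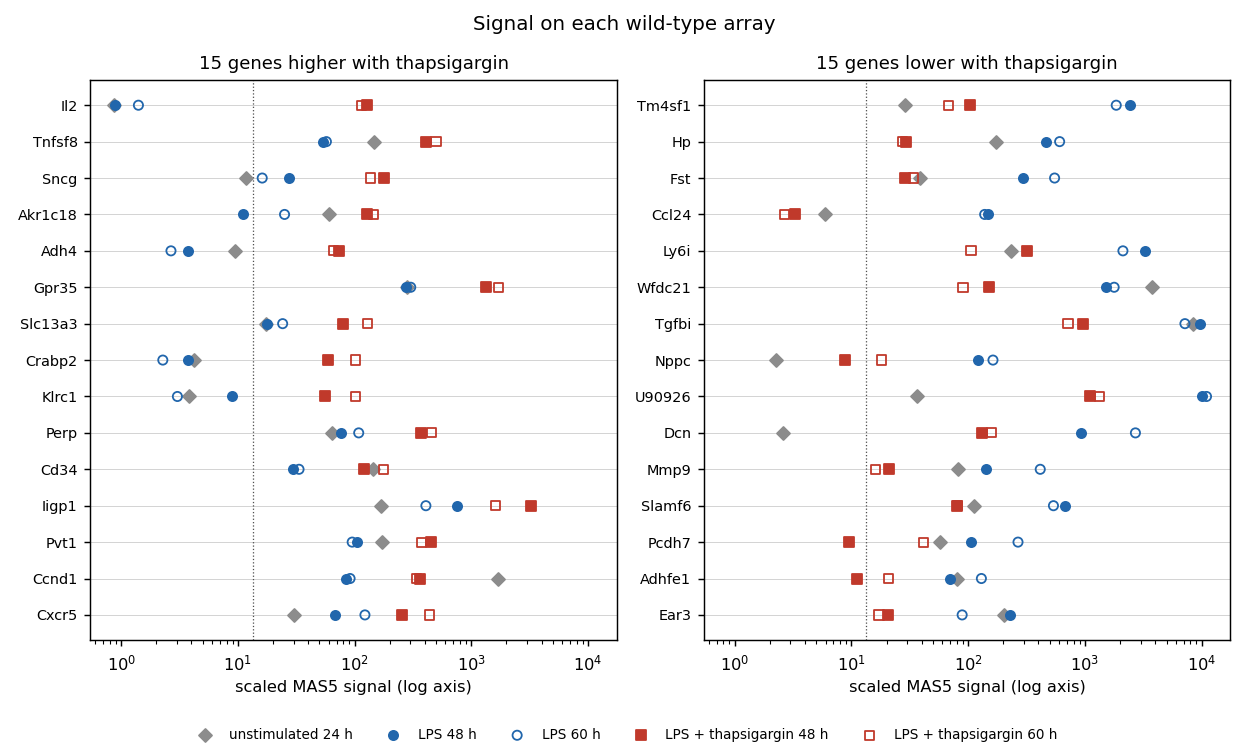
Each row is a gene of the 15 most increased (left) and 15 most decreased (right), and each symbol is the scaled signal on 1 wild-type array, on a logarithmic axis. Squares are LPS with thapsigargin, circles LPS alone and diamonds the unstimulated array, with filled symbols at 48 h and open symbols at 60 h and a dotted line at the floor of 13.4. In the 30 rows the squares do not overlap the circles, which the choice of genes by large changes at both times favours.

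Genes of the endoplasmic reticulum folding machinery were higher in the majority of cases. Of the 30 members tested, 24 were higher at both times and 2 lower at both times, against 44.1% and 23.0% of all genes. These shares of all genes are the background for every such count of a list below. Both thapsigargin arrays lay above both LPS arrays in 22 of the 30, against 31.8% of all genes, and below both in 0, against 15.1%. None was called in the model of 10 arrays, and 14 were called higher and 0 lower in the fit of the 4 wild-type arrays (2.14% and 3.17% of all genes). The median change was 0.49, beside 0.11 for all genes. Derl3 and Sdf2l1 were the 2 members 2-fold higher at both times. Derl3 passed the filter only through thapsigargin arrays, CD14-deficient ones included. Its place in these counts follows in part from where it is high.

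Derl3, a Derlin that helps to extract misfolded proteins from the endoplasmic reticulum, read 34.6 and 49.6 under LPS and 343 and 175 with thapsigargin. Its change was 3.31 at 48 h and 1.81 at 60 h, a mean of 2.56 ± 0.43 (adjusted p = 0.16). Sdf2l1, a partner of the lumenal chaperones, went from 1598 and 1178 to 6364 and 3824, a mean of 1.85 ± 0.41 (adjusted p = 0.24). Creld2, a secreted stress protein of the endoplasmic reticulum, went from 1026 and 1035 to 2929 and 2035. Pdia6, a disulfide isomerase, went from 3055 and 2774 to 7425 and 5204. Hspa5, the master chaperone BiP, was already at 12444 and 11857 under LPS and read 18650 and 15503 with thapsigargin, a mean change of 0.49 ± 0.12 (adjusted p = 0.31). In these 5 genes the thapsigargin arrays did not overlap the LPS arrays, and the 48 h change was the larger of the pair.

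The endoplasmic reticulum stress element, which is CCAAT and CCACG with 9 bases of any kind between them, is the sequence that Atf6 recognises together with the factor NF-Y, and it was searched on both strands in the 250 bases before each RefSeq gene start (GRCm38.p6). It occurred in 10 of the 26 tested members with a sequence (38.5%). Among all genes it occurred in 12 of 6161 tested genes (0.195%) and in 35 of 27025 genes of the table (0.130%). The share in the list follows from which genes were listed and from their sequences, not from the changes with thapsigargin. No result is read from that share. Among genes with a sequence, the element occurred in 1 of 57 that were 2-fold higher at both times and in 0 of 98 that were 2-fold lower. The 10 were Calr, Canx, Creld2, Derl3, Dnajc3, Ero1b, Hsp90b1, Hspa5, Pdia6 and Syvn1. Their changes ran from −0.13 to 2.56 with a median of 0.64, and those of the 16 members without it from −0.16 to 1.85 with a median of 0.46. The windows of Derl3 and Creld2 are shown because these members carried both the element and among the largest changes of the list, at chr10:75893148-75893397 and chr15:88819396-88819645, both on the plus strand. Capitals mark the element, which lies on the other strand in both, and its far end is 156 and 126 bases before the start.
Derl3: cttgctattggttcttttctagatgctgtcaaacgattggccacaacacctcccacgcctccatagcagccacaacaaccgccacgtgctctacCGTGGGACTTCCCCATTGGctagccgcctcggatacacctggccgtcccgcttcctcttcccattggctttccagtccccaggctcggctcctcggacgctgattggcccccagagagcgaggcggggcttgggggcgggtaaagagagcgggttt
Creld2: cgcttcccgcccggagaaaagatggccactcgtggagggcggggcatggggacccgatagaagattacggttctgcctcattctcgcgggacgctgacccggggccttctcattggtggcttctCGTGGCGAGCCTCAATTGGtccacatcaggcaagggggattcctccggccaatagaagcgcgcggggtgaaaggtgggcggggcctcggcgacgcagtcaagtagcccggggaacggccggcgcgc

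**Figure D3:**
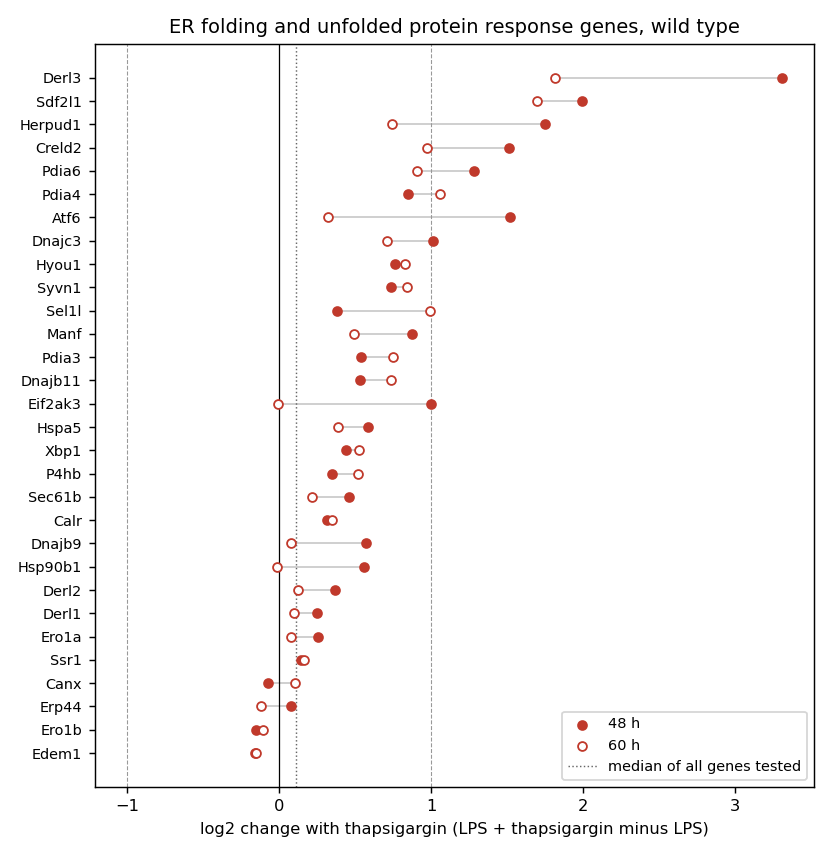
Each row is 1 of the 30 tested genes of endoplasmic reticulum folding and the unfolded protein response, with the log2 change with thapsigargin at 48 h (filled) and 60 h (open) on the horizontal axis. Dashed lines mark 2-fold and the dotted line the median of all genes, 0.11. Derl3 and Sdf2l1 are 2-fold higher at both times, and Ero1b and Edem1 lie below 0 at both.

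Of the 18 tested genes of the integrated stress response, the Atf4 branch, 10 were higher and 3 lower at both times. The shares of all genes were 44.1% and 23.0%. The median change was 0.55, and 0 were 2-fold at both times. Trib3, an Atf4-induced pseudokinase, read 123 and 182 under LPS and 358 and 292 with thapsigargin. Ddit3, which encodes the stress factor CHOP, was at 3545 and 3223 under LPS, 465 before LPS and 5645 and 4816 with thapsigargin, a mean change of 0.63 ± 0.37 (adjusted p = 0.59). Slc7a11, the cystine transporter, was lower, from 3958 and 3128 to 2355 and 1842. The median of this list was 0.78 at 48 h and 0.18 at 60 h. Of the 11 tested tRNA synthetases, also Atf4 targets, 10 were higher at both times and 0 lower, with a median of 0.59. Aars, the alanyl-tRNA synthetase, went from 661 and 788 to 1579 and 1280.

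Sterol synthesis genes were mostly higher, 16 of 22 at both times and 4 lower, with a median of 0.42. Fdps, farnesyl diphosphate synthase, went from 437 and 252 to 1488 and 848 (1.76 ± 0.37, adjusted p = 0.21), and Fdft1, squalene synthase, from 632 and 511 to 1583 and 995 (1.14 ± 0.18, adjusted p = 0.14). Abcg1, a cholesterol exporter, was lower, at 2062 and 1662 under LPS and 931 and 915 with thapsigargin. Of its 22 members, 2 were called higher and 2 lower in the fit of the 4 wild-type arrays, against 2.14% and 3.17% of all genes.

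In the calcium and NFAT lists a few genes differed widely and most by small amounts. Of 19 tested calcium handling genes, 11 were higher and 5 lower at both times, against 44.1% and 23.0% of all genes. The median was 0.17, and Atp2a3 was the 1 member 2-fold higher at both. Atp2a3 encodes SERCA3, a target of thapsigargin, and read 125 and 153 under LPS, 429 and 722 with thapsigargin and 374 on the unstimulated array, a mean change of 2.01 ± 0.34 (adjusted p = 0.16). Atp2a2, the widely expressed SERCA2, read 2339 and 3159 under LPS and 3847 and 3525 with thapsigargin, a mean of 0.44 ± 0.27 (adjusted p = 0.61). Itpr2, a calcium release channel of the endoplasmic reticulum, was lower, from 753 and 408 to 305 and 228.

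Of 14 tested genes of the calcineurin and NFAT machinery, 10 were higher and 1 lower at both times, with a median of 0.22. Rcan1, which is both a calcineurin inhibitor and an NFAT target, read 310 on the unstimulated array, 327 and 494 under LPS and 966 and 1476 with thapsigargin. Its change was 1.56 at 48 h and 1.58 at 60 h (mean 1.57 ± 0.29, adjusted p = 0.17), and it was the 1 member of that list that was 2-fold at both times. Nfatc1, the inducible NFAT gene, read 111 and 156 under LPS and 182 and 202 with thapsigargin.

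Of 12 tested NFAT target genes, 7 were higher and 4 lower at both times, against 44.1% and 23.0% of all genes. The median was 0.22, and 3 were 2-fold at both. Il2, which entered the 12 only through the arrays where it is high, and Rcan1 were higher, and Egr2, a zinc finger factor induced by NFAT in lymphocytes, was lower, at 237 and 446 under LPS and 97 and 118 with thapsigargin (−1.60 ± 0.50, adjusted p = 0.40). Irf4, a transcription factor of dendritic cells and lymphocytes, read 268 and 527 under LPS and 622 and 1013 with thapsigargin. Of the 19 listed targets, 7 were measured but did not pass the filter, among them Ifng, Il4, Fasl and Cd40lg, which were named because they are lymphocyte targets on the list.

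The NFAT core letters GGAAAA, again on both strands of the 250 bases before the start, were found in 5 of the 11 tested targets with a sequence, Egr2, Il2, Ptgs2, Rcan1 and Tnf. They were found in 24.6% of the 57 genes with a sequence among those 2-fold higher, in 18.4% of the 98 among those 2-fold lower, in 21.6% of the tested genes and in 22.9% of all genes in the table. The shares of the higher and lower genes, 14 of 57 and 18 of 98, lay near that of all tested genes, and no pattern is read from them. The windows of Il2 and Rcan1 are shown as the NFAT targets that were 2-fold higher, at chr3:37125955-37126204 and, for 1 of the 2 Rcan1 starts in the table, chr16:92400079-92400328, both on the minus strand. Capitals mark GGAAAA or its reverse complement, 137 and 48 bases before the Il2 start and 228 and 193 bases before the Rcan1 start.
Il2: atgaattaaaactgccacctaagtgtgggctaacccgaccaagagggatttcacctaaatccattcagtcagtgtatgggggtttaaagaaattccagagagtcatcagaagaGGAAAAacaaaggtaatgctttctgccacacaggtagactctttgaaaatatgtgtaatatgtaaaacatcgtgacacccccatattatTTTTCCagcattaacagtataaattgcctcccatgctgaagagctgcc
Rcan1: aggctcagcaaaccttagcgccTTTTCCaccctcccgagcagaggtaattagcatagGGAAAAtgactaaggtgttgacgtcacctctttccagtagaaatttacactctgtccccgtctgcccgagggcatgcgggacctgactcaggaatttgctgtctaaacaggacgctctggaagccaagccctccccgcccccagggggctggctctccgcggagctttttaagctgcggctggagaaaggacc

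The inflammatory products divided. Of 27 tested cytokines and inflammatory enzymes, 5 were 2-fold higher and 5 were 2-fold lower at both times, and 12 were higher and 8 lower at both by any amount. The higher ones were the cytokines Il23a, Il15, Csf1 and Lif and the nitric oxide synthase Nos2, and the lower ones were Arg1, Saa3, Lcn2, Hamp and Orm1, of which the last 4 are acute-phase or iron-binding products. Csf1, the macrophage growth factor, read 301 and 556 under LPS and 1389 and 1851 with thapsigargin (1.97 ± 0.33, adjusted p = 0.16). The size depended on the probe set. Another Csf1 probe set changed by 2.96 and 2.47 at 48 and 60 h, and further ones by 0.02 and 0.76 and by 0.17 and 0.81. Il23a, a subunit of interleukin 23, read 103 and 156 under LPS and 370 and 432 with thapsigargin (1.66 ± 0.35, adjusted p = 0.22). Saa3, serum amyloid A3, went from 10914 and 11204 to 3009 and 2254 (−2.09 ± 0.20, adjusted p = 0.0669), and Hamp, the iron hormone hepcidin, from 5334 and 6592 to 1824 and 1886 (−1.68 ± 0.31, adjusted p = 0.17). Before LPS these 2 genes read 380 and 24.1. Hp belongs to the same class of acute-phase products and was called lower.

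Of 19 tested chemokines, 2 were 2-fold higher and 1, Ccl24, was 2-fold lower at both times. Ccl24 passed the filter only through the wild-type LPS arrays and Cxcl11 only through the wild-type thapsigargin arrays, so their place in this count follows from where they are high. The higher members were Cxcl9, from 385 and 145 to 1091 and 499, and Cxcl11, from 79.5 and 58.4 to 178 and 128. Cxcl10, the third of these ligands of the receptor Cxcr3, was just under 2-fold at 60 h, from 509 and 497 to 1331 and 989 (1.19 ± 0.21, adjusted p = 0.17). All 3 are induced by interferons.

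Interferon-response genes were higher at both times in 21 of 29 tested members and lower in 1, with a median of 0.40. In the fit of the 4 wild-type arrays 10 were called higher and 0 lower, against 2.14% and 3.17% of all genes. Ifit2, a translation inhibitor induced by virus and interferon, read 2039 and 742 under LPS and 5494 and 2978 with thapsigargin (1.72 ± 0.57, adjusted p = 0.42). A separate list of immunity-related GTPases and guanylate-binding proteins had 10 tested members, of which 8 were higher and 1 lower at both times, with a median of 0.48. In it, Irgm2 went from 545 and 598 to 1644 and 1463 (1.44 ± 0.19, adjusted p = 0.10) and Igtp from 1563 and 1302 to 4149 and 3091 (1.33 ± 0.23, adjusted p = 0.16). The 1 member lower at both times was Gbp2b, a guanylate-binding protein, at 65.2 and 42.5 under LPS and at the floor with thapsigargin. Ifit2 and Iigp1 were lower on the 60 h than on the 48 h LPS array, and both thapsigargin arrays lay above both.

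Of 26 tested maturation and migration genes of dendritic cells, 17 were higher and 6 lower at both times, with a median of 0.35. Cd70, a costimulatory ligand, read 509 and 455 under LPS and 1455 and 1302 with thapsigargin (1.52 ± 0.56, adjusted p = 0.45). Cd86, the B7-2 costimulator, read 6327 and 5488 under LPS and 10254 and 8626 with thapsigargin, and Ccr7, the lymph node homing receptor, 3531 and 6408 under LPS and 6977 and 9202 with thapsigargin. Socs3, a feedback inhibitor of cytokine signals, was lower, from 3238 and 4849 to 1649 and 2418 (−0.99 ± 0.19, adjusted p = 0.18). The 13 tested prostaglandin and leukotriene genes held a pair with opposite changes: Ptger2, a receptor of prostaglandin E2, went from 337 and 1034 to 2093 and 2367, and Alox5ap, the activator of leukotriene synthesis, from 6115 and 4460 to 2545 and 1952.

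**Figure D4:**
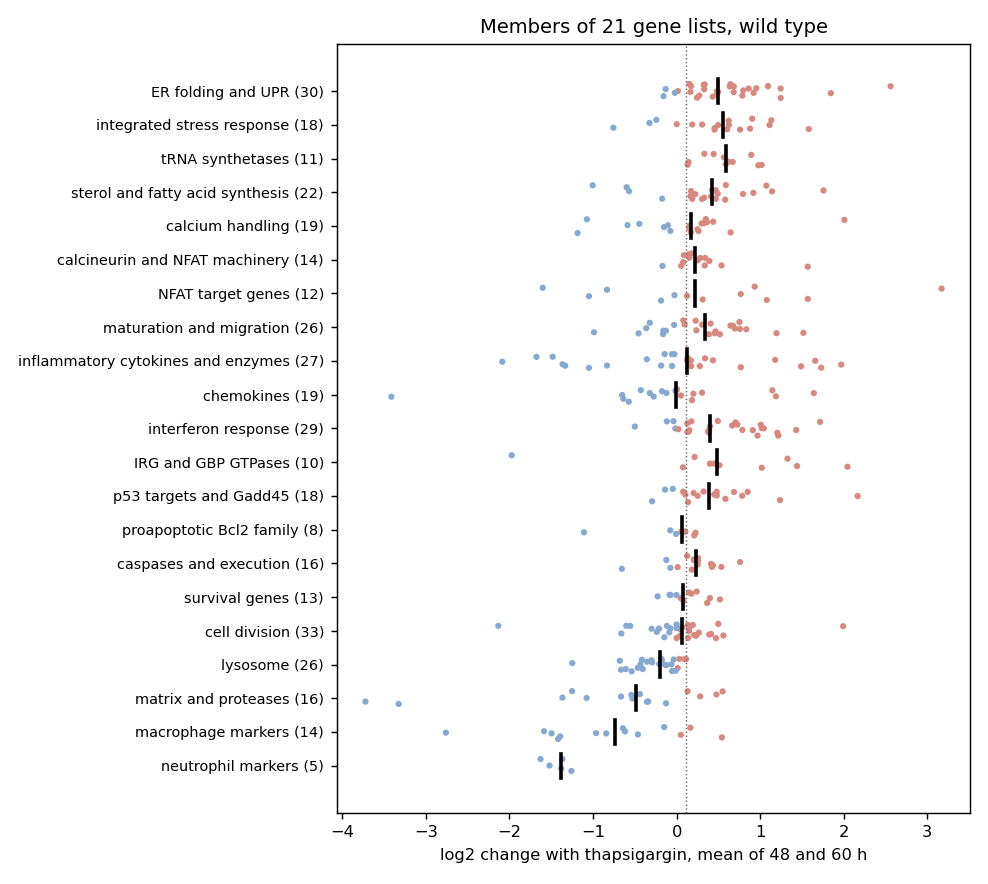
Each row is a gene list with its number of tested genes, each point the log2 change of 1 gene with thapsigargin averaged over 48 and 60 h, red above and blue below 0, and the black bar the median. The dotted line is the median of all 7474 genes, 0.11. The endoplasmic reticulum, integrated stress and tRNA synthetase medians lie between 0.49 and 0.59, and the macrophage and neutrophil medians at −0.74 and −1.38.

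Most markers of macrophages had lower signals with thapsigargin. Of 14 tested macrophage markers, 11 were lower and 2 higher at both times with a median of −0.74, 5 were 2-fold lower at both, and 8 were called lower and 0 higher in the fit of the 4 wild-type arrays (3.17% and 2.14% of all genes). Marco, a scavenger receptor, read 259 and 104 under LPS and 23.2 and 25.2 with thapsigargin (−2.76 ± 0.68, adjusted p = 0.29). Msr1, another scavenger receptor, read 3638 and 2523 under LPS and 1176 and 1131 with thapsigargin. C1qb, a chain of complement C1q, read 661 and 232 under LPS and 155 and 110 with thapsigargin, and 6032 before LPS. The 2 members that were higher at both times, named because they are the whole count, were Gpnmb and Mertk, with changes of 0.17 and 0.54. The summed signal of the 15 measured markers was 65175 and 57385 under LPS and 54086 and 45669 with thapsigargin.

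Of the 11 measured neutrophil markers 5 passed the filter, and those 5 were lower at both times. S100a8, a calprotectin subunit, read 1698 and 1514 under LPS and 500 and 539 with thapsigargin (−1.63 ± 0.22, adjusted p = 0.10), and Ngp, a granule protein, 78.5 and 67.9 under LPS and 30.7 and 30.3 with thapsigargin. The summed signal of the 11 was 7983 and 9827 under LPS and 2483 and 4739 with thapsigargin, most of it from Mmp8, a collagenase. The defining granule genes Mpo, Elane and Prtn3 did not pass the filter and read 31.9 or less on the 4 arrays. In a bulk culture fewer cells of a type and less RNA per cell cannot be told apart, and the part of other cells in the results was not tested.

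Dendritic cell markers had a median change of 0.33 over 14 tested genes, beside 0.11 for all genes. The median was 0.03 at 48 h and 0.24 at 60 h, beside 0.13 and 0.08 for all genes. At both times 6 were higher and 5 lower, against 44.1% and 23.0% of all genes. The list had a summed signal of 45677 and 43452 under LPS and 53972 and 47858 with thapsigargin. Itgax, the CD11c gene by which the cultures were chosen, read 7440 before LPS, 2921 and 1002 under LPS and 1017 and 776 with thapsigargin, and the arrays of the treatments overlapped. Matrix and protease genes were lower at both times in 11 of 16 and higher in 3, with a median of −0.48, including Mmp14, a membrane protease, from 2666 and 3894 to 1178 and 1555 (−1.25 ± 0.17, adjusted p = 0.10), and Serpinb2, an inhibitor of plasminogen activators, from 6039 and 10707 to 2821 and 5149. Lysosomal genes were lower at both times in 20 of 26 and higher in 2, by small amounts (median −0.20, 0 of 26 being 2-fold at both times). Ctsk, a cathepsin, went from 3324 and 2442 to 1111 and 1293 (−1.25 ± 1.08, adjusted p = 0.72), and its change ran from −2.42 to −0.07 when 1 array was left out.

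Apoptosis genes were the aim of the series. None of the 8 tested proapoptotic Bcl2 family genes, 13 survival genes, 16 caspase and execution genes and 10 death receptor genes was 2-fold at both times, and none was called in the model of 10 arrays. In the fit of the 4 wild-type arrays, 1 of these 47 genes was called higher and 1 lower, beside 2.14% and 3.17% of all genes. Bok, a proapoptotic Bcl2 relative, was the lower one, at 73.2 and 61.1 under LPS and 37.8 and 25.5 with thapsigargin (−1.11 ± 0.91, adjusted p = 0.71 with 10 arrays). Daxx, a death receptor adaptor, was the higher one, at 767 and 728 under LPS and 1427 and 1196 with thapsigargin (0.81 ± 0.16, adjusted p = 0.20 with 10 arrays). The medians of the 4 lists were 0.07, 0.08, 0.23 and −0.04, beside 0.11 for all genes. Of the 18 tested p53 targets and Gadd45 genes, 13 were higher and 2 lower at both times with a median of 0.39, and 2 were 2-fold higher at both. These were Perp, described above, and Phlda3, an Akt inhibitor, which went from 1106 and 1051 to 2425 and 2668 (1.24 ± 0.16, adjusted p = 0.10). Cdkn1a, the cell cycle inhibitor p21, went from 4851 and 5230 to 8539 and 7702 (0.69 ± 0.15, adjusted p = 0.22).

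Nr4a1, the orphan nuclear receptor Nur77, read 182 and 286 under LPS and 228 and 352 with thapsigargin (0.31 ± 0.45, adjusted p = 0.85), so that the treatments overlapped. Gadd45g, a stress-induced growth arrest gene, read 3115 and 2547 under LPS and 3267 and 3447 with thapsigargin (0.25 ± 0.31, adjusted p = 0.82). Both were higher under LPS than on the unstimulated array, where Nr4a1 read 53 and Gadd45g 618. Tia1, an RNA-binding protein of stress granules, read 116 and 307 under LPS and 223 and 241 with thapsigargin, higher at 48 h and lower at 60 h. Among 33 tested cell division genes, Ccnd1 was 2-fold higher and Mki67, the proliferation marker Ki-67, 2-fold lower at both times, from 178 and 207 to 62.4 and 30.5.

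The same addition was made to CD14-deficient cells, and no array is shared between the genotypes. There, 207 genes were 2-fold higher at both times (2.77%) and 301 were 2-fold lower (4.03%), and limma on the 10 arrays called 256 higher (3.43%) and 239 lower (3.20%), 6.62% of the genes in all. Of the 82 genes higher in wild type, 35 were also higher in CD14-deficient cells, 42.7% of the first list and 16.9% of the second, and 0 were 2-fold lower. Of the 130 lower genes, 61 were also lower, 46.9% and 20.3%, and 1 was higher. Of the 30 genes described first, 9 of 15 increased and 12 of 15 decreased ones were 2-fold in the same direction at both times in CD14-deficient cells. Among these, Adh4 passed the filter only through the CD14-deficient thapsigargin arrays. Klrc1, Crabp2 and Slc13a3 needed a CD14-deficient thapsigargin array to pass it, and Adhfe1 a CD14-deficient LPS array. Their agreement between genotypes thus follows in part from the filter. The 4 called genes were among the genes called there as well, with changes of 2.07 ± 0.20 for Gpr35, −2.77 ± 0.32 for Tm4sf1, −4.66 ± 0.32 for Hp and −3.57 ± 0.23 for U90926 (adjusted p from 0.0101 to 0.0158).

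The difference of the thapsigargin effects between genotypes was tested as an interaction in limma. No gene passed (0%), and 994 had an unadjusted p under 0.05. The difference is given as wild type minus CD14-deficient. Gadd45g read 256 and 507 in CD14-deficient cells under LPS and 3333 and 4154 with thapsigargin, a change of 3.37 ± 0.31, and its difference was −3.12 ± 0.43 (adjusted p = 0.16). Nr4a1 read 61.5 and 29.8 under LPS and 344 and 436 with thapsigargin there, with a difference of −2.86 ± 0.64 (adjusted p = 0.23). Ddit3 read 479 and 1102 under LPS and 5108 and 4915 with thapsigargin, with a difference of −2.16 ± 0.52 (adjusted p = 0.24). For these 3 genes the wild-type LPS arrays were at 3115 and 2547, 182 and 286, and 3545 and 3223, above the CD14-deficient LPS arrays, and the thapsigargin arrays of the genotypes lay within a factor of 2 of each other.

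The 5 genes with the smallest p in each direction of the difference were taken. The 9 with a signal above the floor on the stimulated wild-type arrays are given first. Those with the lower effect in wild type were Ccl2, a monocyte chemokine (−2.39 ± 0.24), Csf3, granulocyte colony-stimulating factor (−2.60 ± 0.32), Ccrl2, a non-signalling chemokine receptor (−1.66 ± 0.20), Hspa1b, an inducible Hsp70 (−3.61 ± 0.33), and Arrdc4, an arrestin-domain protein (−1.93 ± 0.23), each with an adjusted p of 0.16. Hspa1b was lower with thapsigargin in wild type, from 1683 and 3933 to 928 and 1678, and higher in CD14-deficient cells, from 164 and 321 to 780 and 2360. Those with the higher effect in wild type were Ccna2, the cyclin of S phase (2.92 ± 0.35), Dock8, a Cdc42 activator (2.42 ± 0.35), Gusb, a lysosomal glucuronidase (1.63 ± 0.23), and Tmem37, a calcium channel gamma subunit-like protein (2.36 ± 0.34), again at an adjusted p of 0.16. In these 4 genes the change was 0.22, 0.33, −0.67 and 0.86 in wild type and −2.70, −2.10, −2.30 and −1.50 in CD14-deficient cells. The signal was thus lower with thapsigargin mainly in the latter, where it was also higher under LPS alone. Under LPS Ccna2 read 24.1 and 26.6 in wild type and 197 and 244 in CD14-deficient cells. Dock8 read 193 and 214 against 1044 and 738, Gusb 789 and 1441 against 1716 and 3265, and Tmem37 169 and 119 against 744 and 758. With thapsigargin the genotypes lay closer together in all 4. The gene left out above, Ube2c, also had the higher effect in wild type (3.73 ± 0.39, adjusted p = 0.16). Ube2c was at the floor on the 4 stimulated wild-type arrays and read 1312 on the unstimulated wild-type array. In CD14-deficient cells Ube2c read 159 and 198 under LPS and 1.05 and 7.65 with thapsigargin. In the 5 genes with the lower effect, the wild-type LPS arrays read above the CD14-deficient LPS arrays. Il2 stayed at the floor in CD14-deficient cells under LPS and read 1.92 and 27.5 with thapsigargin, and its difference of 2.65 ± 0.62 had an adjusted p of 0.24. Atp2a3 read 426 and 271 under LPS and 488 and 486 with thapsigargin there, with a difference of 1.49 ± 0.49 (adjusted p = 0.30). The spread between the CD14-deficient LPS arrays enters all of these differences: without the 48 h array of that pair 381 genes were called to differ, and without the 60 h array 1899.

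**Figure D5:**
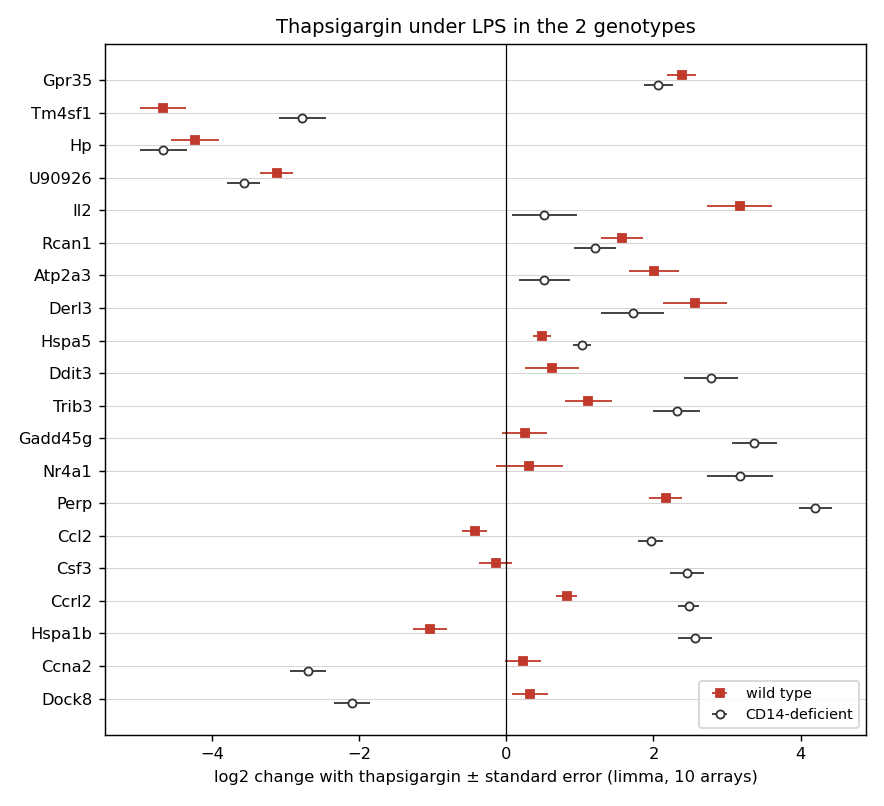
For 20 genes, the plot shows the log2 change with thapsigargin under LPS in wild-type (squares) and CD14-deficient cells (circles), with bars for the standard error of the limma model of 10 arrays. Gpr35, Hp and U90926 lie close together in the genotypes, Gadd45g and Nr4a1 lie near 0 in wild type and above 3 in CD14-deficient cells, and none of the differences passed the test.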

How the data were processed

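RNA was hybridised to 10 Affymetrix mouse arrays, 1 for each condition. The deposited series table holds linear intensities, which the authors computed with MAS5 per the submitters' processing notes, whose version is not given in the sources used here. Each array was scaled by its 2% trimmed mean. Of 22690 probe sets, 20380 had 1 gene symbol in the platform annotation, and where several shared a gene the brightest on average was kept, which left 12393 genes. A floor was set at 13.4, the 25th percentile of all signals, and 7474 genes above the pooled median of 99.2 on 2 or more arrays were tested. The log2 values were fitted with limma 3.58.1 in R 4.3.3 (lmFit, eBayes with a trend; 3 residual degrees of freedom), with the 6 genotype and treatment groups and harvest time as terms, and p-values were adjusted by Benjamini-Hochberg over the 7474 genes. The scripts were tested on simulated data. The 15 genes described in each direction are those with the largest smaller change of the 2 times, called genes first. From each list, up to 4 genes by the same order, those called and a fixed set of calcium and stress genes could be named, and genes outside it are named where they make up a whole count or carry a motif. The genes and the 42 lists were chosen with earlier results of these data known. Promoter sequences are from RefSeq, GRCm38.p6. Array number limits the precision.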

Additional observations from a re-analysis of the deposited data

How the results depend on the processing

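The 4 calls under thapsigargin became 397 with the 4 wild-type stimulated arrays alone, 609 without the CD14-deficient LPS pair, 17 without scaling, 7 without the filter, 12 without the intensity trend and 9 without the time term, the replicate block that pairs the arrays by harvest. Leaving out 1 array gave 0 to 594 calls, and the other alternatives gave 3 to 6. No gene was called higher without the filter or after quantile normalization, and the 4 called genes all lost their calls without the filter. The count of 212 genes 2-fold at both times became 611 at 1.5-fold, 74 at 3-fold and 116 with a strict filter, and 407 to 505 when 1 array was left out so that a single time remained, and was 148 to 275 otherwise. The count of 0 genes that differed between genotypes became 5 without the filter and 2 without the intensity trend, and 0 to 1899 with 1 array left out. The cause of these shifts was not tested. Averaging probe sets turned the wild-type changes of Arrdc4 to 0.031 and Edem1 to 0.12, and leaving the values unscaled turned Cd14 to −0.0013. With 1 array left out, the change ran from −0.042 to 0.17 for Cd14, −0.42 to 0.13 for Csf3, −0.12 to 0.63 for Gadd45g, −0.048 to 0.38 for Gpnmb, −2.08 to 0.19 for Itgax, −0.0275 to 0.65 for Nr4a1 and −0.48 to 1.07 for Tia1. None of these genes was called in the model of 10 arrays.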
